A study of Mus musculus with 8 samples.

Results

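A set of 9 genes of the acute-phase response and the complement system were followed through mouse primary myotubes exposed to 3 cytokines of the interleukin 6 family. The set was chosen by name, with earlier results of these data known. It holds Cp, Lcn2, Saa3 and Hp, which encode acute-phase proteins, and C3, C4b, C1ra, C1s1 and Cfb, which encode complement components. All 9 are among the 53647 genes listed in the count files, and 5 of them (Cp, Saa3, C3, C1ra and C1s1) had enough counts to enter the test, which covered 15603 genes. Saa3 entered only through the oncostatin M libraries, so any difference found for it had to be of that group against the others. The other members, Lcn2, Hp, C4b and Cfb, are given as counts.

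Acute-phase proteins are plasma proteins whose production, mainly by the liver, changes when inflammatory cytokines circulate. Interleukin 6, leukaemia inhibitory factor and oncostatin M signal through receptors that share the subunit gp130 and activate the transcription factor STAT3, which works with C/EBP and NF-kB factors at many acute-phase genes in liver cells. Complement is a cascade of plasma proteases that starts at antibody or carbohydrate surfaces and converges on the cleavage of C3, and many of its components are also made outside the liver.

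The cells were wild-type primary myotubes, multinucleated fibres grown from myoblasts of the limb muscles of pups aged 2 to 3 days and differentiated in medium with 5% horse serum. Cultures received 1 cytokine at 250 ng/ml for 48 h: interleukin 6 (IL6), leukaemia inhibitory factor (LIF) or oncostatin M (OSM). Control cultures received none, and all were harvested 72 h after differentiation. Strain, the control's vehicle and any added soluble receptor are not given in the sources used here. Each group had 2 libraries; nothing says that they came from separate animals or dishes, so p-values measure only the spread between these samples, which may be technical.

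The libraries were even in depth, with 29482077 to 30025471 counts in genes, and 21358 to 21831 genes had at least 1 count. The labelled cell type was checked on marker lists, whose levels were summed in CPM, counts relative to library size after the libraries were scaled with edgeR (TMM, a trimmed mean of log ratios). All 8 myotube markers listed were tested, and their sum was 20741 to 21533 CPM in control, 17809 to 20437 CPM in IL6, 19001 to 20207 CPM in LIF and 18320 to 18476 CPM in OSM libraries. Of the 8 myotube markers 1 was called higher and 2 lower with OSM, where 10.7% of all tested genes rose and 10.5% fell. With LIF too 1 was called higher and 2 lower, where 4.18% of all tested genes rose and 3.52% fell. Myog averaged 1133 ± 169 CPM in control, 842 ± 0.0129 CPM with LIF and 786 ± 47.7 CPM with OSM. Des lay the other way, at 1017 ± 25.9 CPM in control, 1490 ± 66.4 CPM with LIF and 1251 ± 14.2 CPM with OSM. Of 3 myoblast markers 2 were called higher with OSM. Among these Pax7 averaged 45.1 ± 0.0885 CPM in control and 59.2 ± 2.65 CPM with OSM (SD, n = 2). Hepatocyte markers reached at most 0.463 CPM and neutrophil markers at most 0.103 CPM in any library. The macrophage list summed to 7.96 to 9.30 CPM in control and 10.3 to 13.9 CPM in IL6 libraries. In LIF libraries the sum was 13.7 to 14.5 CPM and in OSM libraries 14.0 to 15.4 CPM. Of its 7 genes, 4 (Adgre1, Ptprc, Lyz2 and Fcgr1) had 5 counts or fewer in every library. Its 2 tested genes, Mrc1 and Cd68, were both called higher with OSM, and 1 with LIF. Mrc1 averaged 6.44 ± 1.13 CPM in control and 10.3 ± 0.668 CPM with OSM. Cd68 averaged 1.98 ± 0.186 and 4.05 ± 0.319 CPM (SD, n = 2). The fibroblast list summed to 1652 to 1716 CPM in control, 1503 to 1703 CPM in IL6, 1983 to 2046 CPM in LIF and 2058 to 2166 CPM in OSM libraries, with Lum at 0 throughout. Col3a1 carried most of that sum, at 1433 ± 143 CPM in control and 2018 ± 65.1 CPM with OSM. Col1a1 lay the other way, at 239 ± 98.6 and 78.4 ± 8.90 CPM (SD, n = 2). Of the 4 tested genes of the fibroblast list, 2 were called higher and 0 lower with OSM, and 1 higher with LIF. The part of these shifts in the results below was not tested, and in a bulk culture more cells of a type and more RNA per cell cannot be told apart.

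With OSM, Cp, C3, C1ra and C1s1, 4 of the 9 members, were higher than in control at an adjusted p under 0.05 (edgeR's quasi-likelihood test with Benjamini-Hochberg adjustment over all tested genes). Of all tested genes, 10.7% were higher by the same rule. Saa3 passed as well, but it entered the test only through OSM and is not counted here against that share. With LIF, 3 members (Cp, C3 and C1s1) rose, against 4.18% of all tested genes. With IL6 no member passed, as no gene did (0.00%). An unadjusted p under 0.05 was found for 2 members and for 808 of the 15603 tested genes. DESeq2 called 1 member, Cp, among 16 genes in all. The 3 comparisons share their control libraries, so they are not independent of each other. The members were chosen with earlier results of these data known, so shares here and below are set beside them as description only. The Saa3 call did not hold when either control or either OSM library was left out (adjusted p 0.0503 to 0.127).

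**Figure D1:**
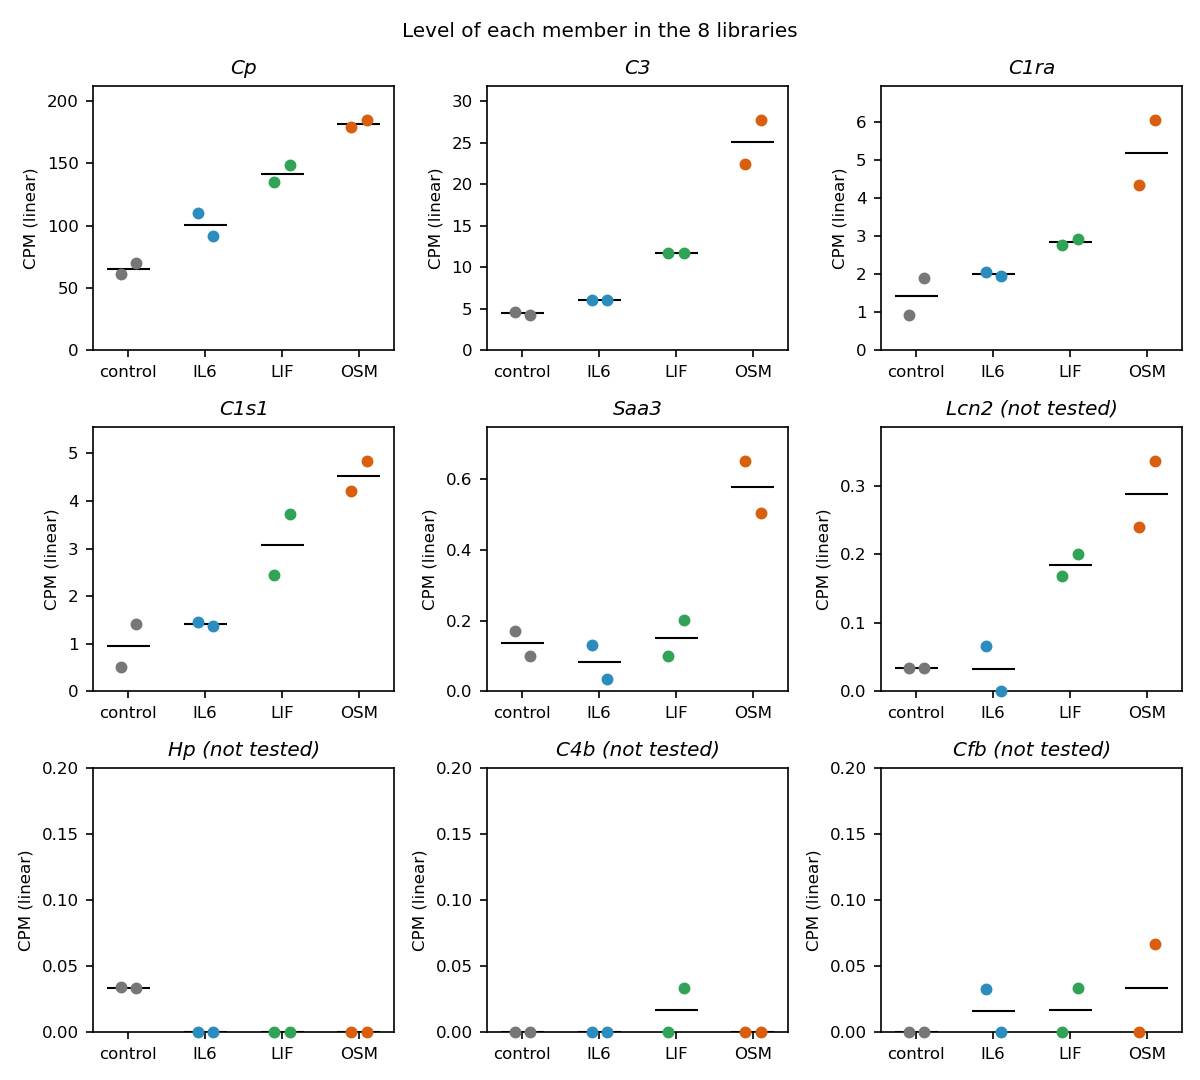
Level of each of the 9 members in CPM on a linear axis, with 1 point for each library and a line at the mean of the 2 libraries of a group. Cp, C3, C1ra and C1s1 step up from control through IL6 and LIF to OSM, while Hp, C4b and Cfb stay at or below 2 counts in every library.

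Ceruloplasmin, encoded by Cp (ENSMUSG00000003617), carries most plasma copper and oxidises ferrous iron. It was the most abundant member: control libraries held 61.2 and 70.0 CPM, IL6 libraries 110.2 and 91.6 CPM, LIF libraries 134.7 and 148.4 CPM, and OSM libraries 178.7 and 184.3 CPM. No 2 groups overlapped. The group means were 65.6 ± 6.22, 101 ± 13.2, 142 ± 9.63 and 181 ± 3.95 CPM (SD, n = 2). OSM raised Cp by 1.47 on the log2 scale (SE 0.093, adjusted p = 3.09e-07), and the change with LIF was 1.11 (SE 0.093, adjusted p = 2.4e-05). With IL6 it was 0.62 (SE 0.093), with an unadjusted p of 2.14e-05 and an adjusted p of 0.106, and no gene had a lower one in that comparison. DESeq2 gave an adjusted p of 2.91e-06 for the same difference. Of 13 alternative fits, 9 left it uncalled as in the main fit and 4, DESeq2 included, called it. With a library left out the log2 change ran from 0.48 to 0.75. Counts per kilobase of exon, the scale on which genes can be compared, were 6.86 CPM per kb in control and 19.0 CPM per kb with OSM.

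The Saa3 product is a serum amyloid A made outside the liver, by macrophages and adipocytes among others. Saa3 (ENSMUSG00000040026) was near the limit of detection: control libraries held 5 and 3 counts, IL6 libraries 4 and 1, LIF libraries 3 and 6, and OSM libraries 19 and 15. Only the OSM libraries stood above all the others, which overlapped each other. The log2 change with OSM was 2.05 (SE 0.551, adjusted p = 0.0175) from control and 1.90 (SE 0.535, adjusted p = 0.0455) from LIF. From control it was 0.15 for LIF (SE 0.755, adjusted p = 0.947) and -0.67 for IL6 (SE 0.865, adjusted p = 0.953). The LIF value turned to -0.17 without control replicate 2 and to -0.41 without LIF replicate 2. The liver-type relatives Saa1 and Saa2 had at most 2 counts in any library.

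Lipocalin 2, encoded by Lcn2 (ENSMUSG00000026822), binds the iron carriers of bacteria. Its counts were 1 and 1 in control, 2 and 0 with IL6, 5 and 6 with LIF and 7 and 10 with OSM libraries. Both LIF and both OSM libraries were above all control and IL6 libraries. Summed over a group and scaled for depth, the OSM level was 8.47 times the control level, with an exact 95% interval from counting of 2.01 to 75.7, and the LIF level 5.44 times (1.19 to 50.5). These intervals cover counting error only. OSM and LIF differed by a ratio of 1.56 with an interval of 0.689 to 3.68. With the low-count filter removed, edgeR gave a log2 change of 2.94 for OSM against control (SE 0.88, adjusted p = 0.0347). For LIF against control it gave 2.31 (adjusted p = 0.287). DESeq2 gave 3.09 for OSM against control (SE 1.54, unadjusted p = 0.0451) and no adjusted p.

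Haptoglobin, encoded by Hp (ENSMUSG00000031722), captures haemoglobin released from red cells and is a classical acute-phase protein of liver. The files held 1 count for it in each control library and 0 in all 6 cytokine libraries, so no rise was detectable at this depth. A count of 0 allows up to 3 counts, about 0.1 CPM.

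C3 (ENSMUSG00000024164) encodes the component on which all complement routes converge. With OSM, but not with LIF or IL6, C3 rose the most on the log2 scale of the tested complement members. With LIF C1s1 rose more (1.67 against 1.39). With IL6 C1s1 (0.55) and C1ra (0.49) had larger changes than C3 (0.43), none of them called. Control libraries held 4.67 and 4.30 CPM of C3, IL6 libraries 6.02 and 6.04 CPM, LIF libraries 11.8 and 11.7 CPM, and OSM libraries 22.4 and 27.6 CPM. Here too no groups overlapped, and the step from LIF to OSM was larger than the spread between OSM libraries. Group means were 4.48 ± 0.260, 6.03 ± 0.0118, 11.7 ± 0.0573 and 25.0 ± 3.71 CPM (SD, n = 2). The fitted change from control was 5.58-fold for OSM (log2 2.48, SE 0.133, adjusted p = 4.32e-08) and 2.62-fold for LIF (log2 1.39, SE 0.146, adjusted p = 0.000105). For IL6 it was 1.35-fold (log2 0.43, SE 0.163, adjusted p = 0.936). Per kilobase of exon, C3 went from 0.872 CPM per kb in control to 4.87 CPM per kb with OSM.

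C1ra and C1s1 encode the serine proteases C1r and C1s, which sit beside C1q in the first complex of the classical route and cleave C4 and C2. C1ra (ENSMUSG00000055172) had 27 and 57 counts in control, 62 and 58 with IL6, 82 and 87 with LIF and 127 and 180 with OSM. Control replicate 1 was the lowest library, and the highest control library lay just under the lowest IL6 library in CPM (1.91 against 1.96). The log2 change with OSM was 1.86 (SE 0.267, adjusted p = 0.00026). It was 1.44 without control replicate 1 and 2.49 without control replicate 2. With LIF it was 0.99 (SE 0.303, adjusted p = 0.0683), and it passed only without control replicate 2 (1.61, adjusted p = 0.0179) or with the replicate number as a block.

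C1s1 (ENSMUSG00000038521) had 15 and 42 counts in control, 44 and 41 with IL6, 73 and 111 with LIF and 123 and 144 with OSM libraries. Control replicate 1 was again the lowest, IL6 overlapped control, and the LIF and OSM libraries lay apart from control and from each other. The log2 change from control was 2.22 for OSM (SE 0.319, adjusted p = 0.000272). For LIF it was 1.67 (SE 0.345, adjusted p = 0.00988). Without control replicate 1 the OSM value was 1.68 and without control replicate 2 it was 3.13, and the LIF call was lost without control replicate 1 (1.13, adjusted p = 0.0632) or LIF replicate 2 (adjusted p = 0.139). Per kilobase of exon, C1ra and C1s1 were at 0.476 ± 0.234 and 0.308 ± 0.202 CPM per kb in control and at 1.74 ± 0.402 and 1.44 ± 0.141 CPM per kb with OSM (SD, n = 2), so in these groups their means differed by less than the larger SD. Both have near-identical neighbours: 50.8% of the 50-base stretches of the longest C1ra transcript also occur in other genes, chiefly C1rb, and 39.0% of those of C1s1, chiefly C1s2. C1rb had 2 counts in 1 OSM library and 0 in the others, a mean of 0.0141 CPM per kb, and C1s2 was at 0.0189 to 0.0441 CPM per kb in the 4 groups, so the split between copies is uncertain but the counts lay mostly with C1ra and C1s1. Exons of C1s1 also overlap Gm16567 on the other strand over 18.4% of their bases, and that gene had 0 counts throughout.

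C4b encodes complement component 4, the substrate of C1s, and Cfb encodes factor B, the protease of the alternative C3 convertase. C4b (ENSMUSG00000073418) had 1 count in LIF replicate 2 and 0 in the other 7 libraries. Its near-identical neighbour C4a shares 35.2% of the stretches and had 3 to 19 counts a library, without an order by group. Cfb (ENSMUSG00000090231) had 1 count in IL6 replicate 1, 1 in LIF replicate 2 and 2 in OSM replicate 2, and 0 elsewhere. Both genes were thus at or under the floor of 3 counts in every library, and no fold is given. Of the exon bases of Cfb, 79.5% overlap the gene model Gm20547 (0 counts in every library) on the same strand, and reads that fit 2 genes are counted for neither in this file layout, so a low Cfb count can understate its level.

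**Figure D2:**
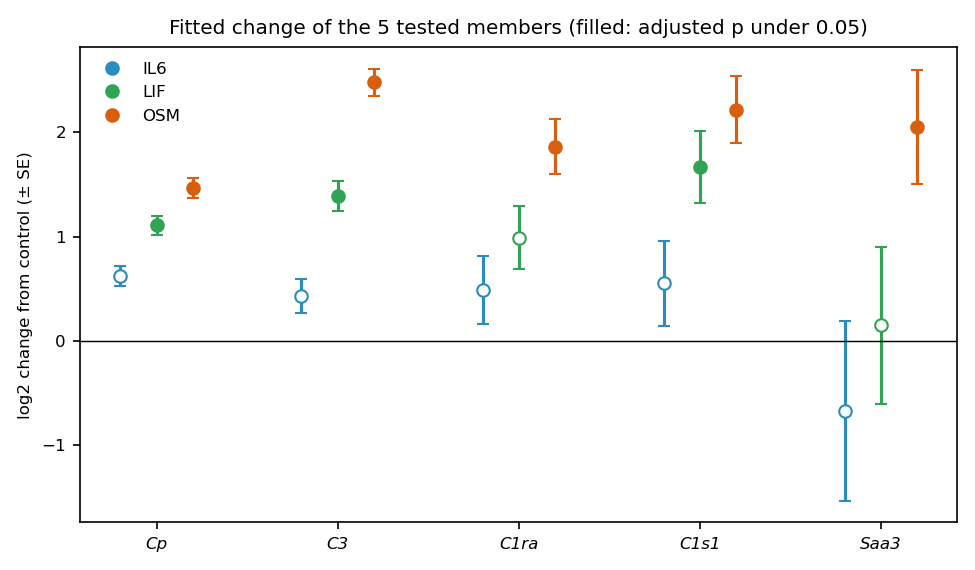
Log2 change from control of the 5 tested members, with 1 point for each cytokine and bars of ± SE from the edgeR fit; filled points have an adjusted p under 0.05. The OSM points of Cp, C3, C1ra and C1s1 are filled, as is that of Saa3, which entered the test only through OSM. These points lie between 1.47 and 2.48, while the IL6 points lie between -0.67 and 0.62 and none is filled.

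The cytokines were also compared with each other. OSM gave higher levels than LIF for Cp, C3 and C1ra, against 4.06% of all tested genes, and than IL6 for Cp, C3, C1ra and C1s1, against 8.09%. Saa3 passed in both, having entered the test only through OSM. LIF gave higher levels than IL6 for 2 members (Cp and C3), against 1.73% of all tested genes. The OSM excess over LIF was 1.09 on the log2 scale for C3 (SE 0.113, adjusted p = 5.4e-05), 0.87 for C1ra (SE 0.230, adjusted p = 0.0335), 0.55 for C1s1 (SE 0.246, adjusted p = 0.225) and 0.36 for Cp (SE 0.089, adjusted p = 0.0263). C3 alone kept this call when any single LIF or OSM library was left out. The calls of Cp (adjusted p 0.0646 to 0.300), C1ra (0.0502 to 0.323) and Saa3 (0.115 to 0.382) were lost each time. Without either LIF library the call of Cp for LIF against IL6 was lost too (adjusted p 0.0646 and 0.183), and Saa3 lost that for OSM against IL6 without IL6 replicate 2 (0.0580) or OSM replicate 1 (0.0804).

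From low to high, the group means of Cp, C3, C1ra and C1s1 ran control, IL6, LIF, OSM. That is 4 of the 5 tested members, and 11.4% of all tested genes had this order. Not every neighbour in the order was separated by the test. IL6 did not pass against control for any of the 4 genes, LIF did not pass against IL6 for C1ra (log2 0.50, SE 0.280, adjusted p = 0.459) and C1s1 (adjusted p = 0.0859), and OSM did not pass against LIF for C1s1. Both IL6 libraries were above both control libraries for 3 of the 5 tested members (Cp, C3 and C1ra), against 14.0% of all tested genes.

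The windows around the transcript starts show what sequence lies where these genes begin. RefSeq (GRCm38.p6) gave 8 windows of 300 bases, 250 before and 50 after a start, for 6 members; Hp, C4b and Cfb had none. The counts were made on GRCm39, per the submitters' processing notes, so these coordinates are RefSeq's and not those of the count files. Searched on both strands were a STAT pattern (TTCNNNGAA), a C/EBP pattern (TTGCNNAA), an NF-kB pattern (GGG and TTCC with 3 bases between them) and an IRF pattern (GAAA and GAAA with 2 bases between them). The windows of the tested members, Cp, C3, C1ra, C1s1 and Saa3, follow in the direction of the gene with matches in capitals. Where a gene has more than 1 start the most downstream is shown.
Cp, chr3:19956999-19957298, plus strand: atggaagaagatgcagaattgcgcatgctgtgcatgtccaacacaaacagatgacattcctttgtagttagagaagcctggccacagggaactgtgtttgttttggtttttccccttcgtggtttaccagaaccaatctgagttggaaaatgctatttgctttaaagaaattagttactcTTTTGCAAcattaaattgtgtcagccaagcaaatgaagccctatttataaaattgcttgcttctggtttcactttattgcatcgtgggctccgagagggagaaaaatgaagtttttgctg
C3, chr17:57228087-57228386, minus strand: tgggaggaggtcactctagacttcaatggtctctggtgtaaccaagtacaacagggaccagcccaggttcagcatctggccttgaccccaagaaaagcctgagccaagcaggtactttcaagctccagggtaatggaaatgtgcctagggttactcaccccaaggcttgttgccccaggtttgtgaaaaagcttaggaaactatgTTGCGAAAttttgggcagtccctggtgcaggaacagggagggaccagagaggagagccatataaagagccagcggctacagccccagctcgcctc
C1ra, chr6:124512371-124512670, plus strand: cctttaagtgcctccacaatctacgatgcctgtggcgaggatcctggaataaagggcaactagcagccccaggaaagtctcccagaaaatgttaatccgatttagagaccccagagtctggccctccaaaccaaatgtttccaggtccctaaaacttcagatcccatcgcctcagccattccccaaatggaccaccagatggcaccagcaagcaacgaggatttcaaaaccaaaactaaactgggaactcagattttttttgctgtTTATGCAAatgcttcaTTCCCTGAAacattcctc
C1s1, chr6:124542272-124542571, minus strand: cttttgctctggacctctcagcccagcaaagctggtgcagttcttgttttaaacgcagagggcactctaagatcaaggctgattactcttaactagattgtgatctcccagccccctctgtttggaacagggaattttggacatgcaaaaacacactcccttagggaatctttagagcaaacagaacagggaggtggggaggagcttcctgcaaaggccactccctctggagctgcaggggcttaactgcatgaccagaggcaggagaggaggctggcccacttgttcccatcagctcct
Saa3, chr7:46715627-46715926, minus strand: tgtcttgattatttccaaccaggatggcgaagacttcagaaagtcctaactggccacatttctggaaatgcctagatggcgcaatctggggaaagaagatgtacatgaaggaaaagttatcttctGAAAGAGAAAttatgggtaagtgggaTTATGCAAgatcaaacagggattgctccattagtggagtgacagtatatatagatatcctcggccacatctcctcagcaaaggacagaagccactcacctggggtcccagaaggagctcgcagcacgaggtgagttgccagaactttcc

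The C/EBP pattern was in 6 of the 8 windows and in a window of each of the 6 members, Lcn2 included; of 32851 RefSeq start windows of the same length, 10.8% hold it. It lay at bases -70 to -63 from the Cp start, -45 to -38 from the C3 start and -99 to -92 from the Saa3 start, and at bases 17 to 24 after the C1ra start. For C1s1 it was only in the window of the upstream start, at -242 to -235, so the printed C1s1 window has no capitals. The STAT pattern was in 1 window, that of C1ra at bases 33 to 41 (8.30% of all windows hold it). The IRF pattern was in that of Saa3 at -125 to -116 (3.44% of all windows). The NF-kB pattern, which 5.56% of all windows hold, was in 0 of the 8. No matches overlapped. A match is a description of the letters and says nothing of binding.

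**Figure D3:**
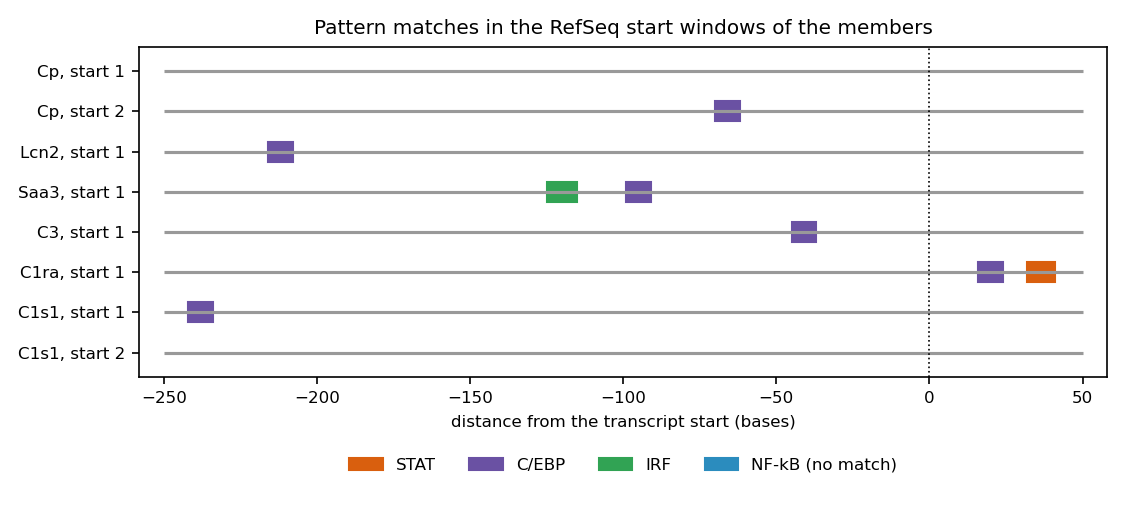
Matches to the 4 patterns in the 8 RefSeq start windows of 6 members, drawn to scale against the distance in bases from the transcript start (dotted line). C/EBP matches are in 6 windows at differing distances, with 1 STAT match in C1ra, 1 IRF match in Saa3 and no NF-kB match.

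Other genes of the same systems were read from lists named in full by role. These lists too were chosen with earlier results of these data known, so the shares beside them are description only. Of 22 further acute-phase genes 6 were tested. With OSM 1 of them, Serpina3n, rose and 1, Lbp, fell, where 10.7% of all tested genes rose and 10.5% fell. A2m was called higher as well, but it entered the test only through LIF and OSM and is not counted here against that share. Serpina3n, a protease inhibitor of the alpha-1-antichymotrypsin family, went from 1.08 ± 0.511 CPM in control to 17.6 ± 1.59 CPM with LIF and 56.2 ± 3.59 CPM with OSM (SD, n = 2). Its log2 change under OSM was 5.69 (SE 0.233, adjusted p = 3.5e-08). In the IL6 libraries Serpina3n had 21 and 56 counts against 21 and 43 in control. A2m, the broad protease trap alpha-2-macroglobulin, had 1 and 3 counts in control, 9 and 6 with IL6, 18 and 18 with LIF and 34 and 54 with OSM; it passed the filter only through LIF and OSM. Both rises of A2m were called, the LIF call being lost without control replicate 1 or either LIF library (adjusted p 0.0780 to 0.103). Lbp, which hands bacterial lipopolysaccharide to CD14 and is an acute-phase protein of liver, moved the other way. Control libraries averaged 18.5 ± 5.41 CPM and OSM libraries 6.65 ± 0.844 CPM (log2 change -1.48, SE 0.240, adjusted p = 0.00186).

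Among 7 acute-phase genes that fall in liver, 2 were tested, and Serpina6, the corticosteroid carrier of plasma, fell with OSM from 14 and 12 counts to 4 and 2 counts (log2 change -2.07, SE 0.646, adjusted p = 0.0362); it passed the filter only through control, and the call was lost without any 1 of these 4 libraries. Of the 29 acute-phase genes in both lists, 18 had at most 5 counts in every library and 6 had 0. Those at 0 were Fga, Fgg, Saa4, Ttr, Trf and Ahsg.

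Of 16 other genes of the classical and lectin routes, 7 were tested and 4 rose with OSM, against 10.7% of all tested genes: Colec10 and Colec12, which encode collectins, Masp1, which encodes a protease of the lectin route, and C1rl, which encodes a C1r-like protease. Masp1 averaged 34.6 ± 2.06 CPM in control, 40.8 ± 6.55 CPM in IL6, 36.9 ± 0.580 CPM in LIF and 62.0 ± 2.23 CPM in OSM libraries (log2 change with OSM 0.84, SE 0.096, adjusted p = 3.72e-05). Colec12 rose by 0.70 (SE 0.081, adjusted p = 3.86e-05) with OSM. Colec10 had its highest level with LIF, at 5.35 ± 0.371 CPM against 2.00 ± 0.353 CPM in control (SD, n = 2). It was the 1 gene of the list called with LIF, where 4.18% of all tested genes rose. With OSM its call was lost without control replicate 1 or either OSM library (adjusted p 0.0921 to 0.133), and that of C1rl without control replicate 2 or either OSM library (0.0530 to 0.128). Of 9 genes of the alternative and terminal routes, 2 were tested and none was called with OSM or LIF by edgeR or DESeq2, nor had an unadjusted p under 0.05. The median log2 changes with OSM were 0.70 over the 7 and 0.001 over the 2 genes, against -0.0027 over all tested genes.

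Of 12 complement regulators 8 were tested. Csmd1, a transmembrane protein that restrains complement, rose with OSM, from 3 and 3 counts to 37 and 42, and passed the filter only through OSM. Cd59a, which blocks the membrane attack complex, was lower with OSM by a small amount (log2 change -0.29, SE 0.091, adjusted p = 0.0389), a call lost under 8 alternatives, DESeq2 among them (adjusted p = 0.0896). Of 9 complement receptors 5 were tested. Cd93 alone was called higher with OSM, where 10.7% of all tested genes rose. It went from 9 and 8 counts to 20 and 21 (adjusted p = 0.0436 with edgeR and 0.261 with DESeq2). Cd93 passed the filter only through LIF and OSM, so it is not counted against that share. Its call was lost when any 1 control, LIF or OSM library was left out. Of the 46 complement genes in these lists, 23 had at most 5 counts in every library.

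Ceruloplasmin works with iron exporters, and all 17 listed genes of iron and copper handling were tested. With OSM 2 rose and 2 fell, shares near those of all tested genes (10.7% and 10.5%), and the median was -0.17. With LIF 1 fell, where 3.52% of all tested genes fell. Heph, a membrane ferroxidase related to ceruloplasmin, fell from 24.1 ± 1.05 CPM in control to 18.2 ± 0.897 CPM with LIF and 10.7 ± 0.122 CPM with OSM (SD, n = 2). The log2 change of Heph was -1.17 for OSM (SE 0.109, adjusted p = 5.02e-06) and -0.40 for LIF (SE 0.101, adjusted p = 0.028), while IL6 libraries overlapped control. Slc40a1, the iron exporter ferroportin, had a log2 change of -0.59 with OSM (SE 0.150, adjusted p = 0.0152). Atp7b, which loads copper onto ceruloplasmin in liver, rose by 0.60 (SE 0.174, adjusted p = 0.0288), and Lrp1, an endocytic receptor, by 0.35 (SE 0.058, adjusted p = 0.000792). The OSM calls of Slc40a1 and Atp7b were lost without control replicate 2 or either OSM library, and the LIF call of Heph without control replicate 2 or any 1 LIF or OSM library (adjusted p 0.0602 to 0.238).

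Among 14 genes that induce or restrain the acute phase, 11 were tested. With OSM 7 rose, against 10.7% of all tested genes, and with LIF 7, against 4.18%; the medians were 0.32 and 0.33. Socs3, the feedback inhibitor of gp130 signalling, was at 42.9 ± 1.84 CPM in control, 51.9 ± 1.94 CPM with IL6, 118 ± 1.56 CPM with LIF and 110 ± 0.412 CPM with OSM (SD, n = 2). Socs3 rose by 1.37 on the log2 scale under OSM (SE 0.064, adjusted p = 1.81e-08) and by 1.47 under LIF (SE 0.064, adjusted p = 4.99e-08). The IL6 value was 0.28 (SE 0.066, adjusted p = 0.611). OSM against LIF was -0.10 for Socs3 (SE 0.061, adjusted p = 0.395) and -0.16 for Cebpd (SE 0.158, adjusted p = 0.639), where C3 had 1.09. Cebpd, which encodes the acute-phase transcription factor C/EBP delta, rose by 0.81 under OSM (SE 0.169, adjusted p = 0.00674) and by 0.98 under LIF (SE 0.168, adjusted p = 0.00609); both calls were lost without either control library, and the LIF call also without LIF replicate 2 (adjusted p = 0.0707). Rela and Nfkb2, which encode NF-kB subunits, and Tnfrsf1a, the main receptor of tumour necrosis factor, rose by 0.55, 0.39 and 0.55 with OSM; their LIF calls were lost without either LIF library, and that of Nfkb2 also without control replicate 1. The exons of Cebpd and Nfkb2 overlap genes on the other strand over 15.0% and 18.1% of their bases, so their counts are uncertain to that extent. None of the 58 tested genes of all these lists was called with IL6 by edgeR or DESeq2. An unadjusted p under 0.05 (edgeR) was found for 6 of them and for 808 of the 15603 tested genes.

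**Figure D4:**
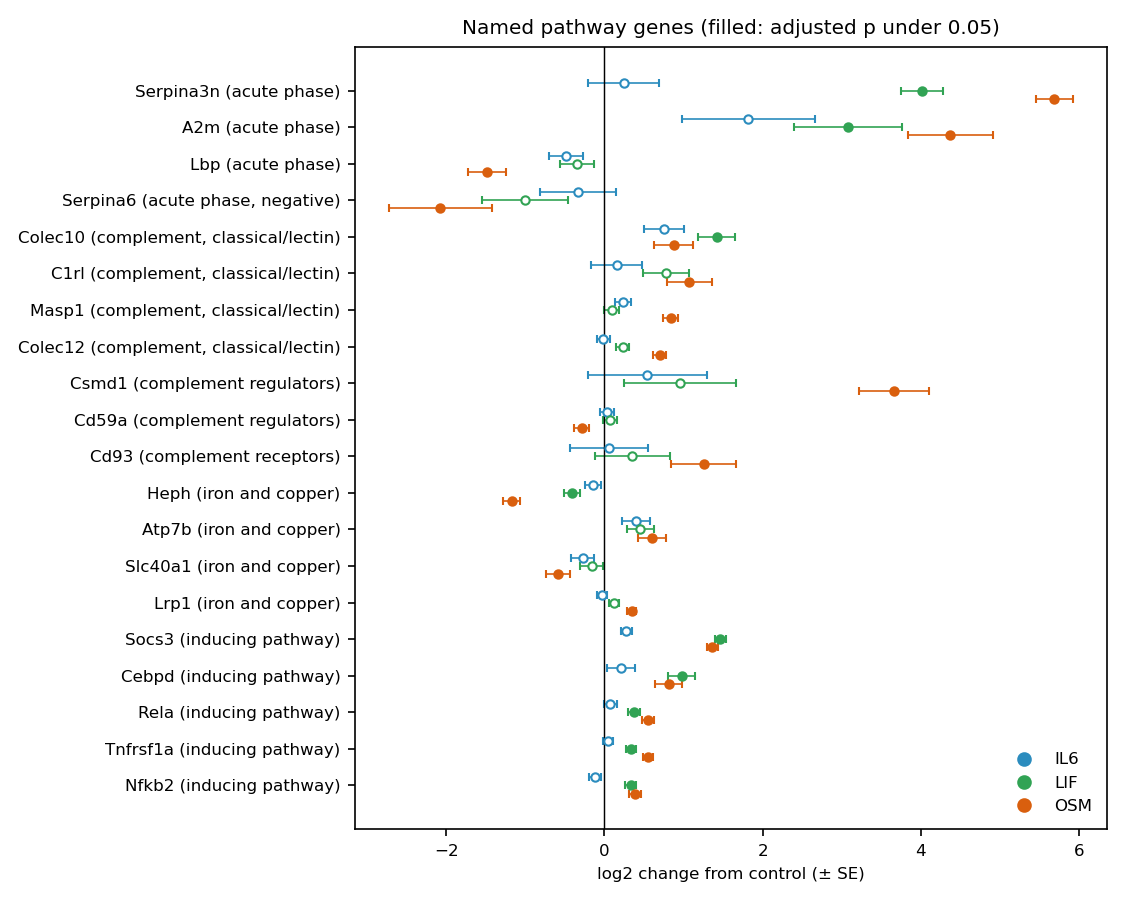
Log2 change from control (± SE, edgeR) of 20 pathway genes named by rule, with IL6, LIF and OSM points on 1 row for each gene; filled points have an adjusted p under 0.05. Serpina3n has the largest change, 5.69 with OSM, Lbp, Serpina6, Cd59a, Heph and Slc40a1 have filled OSM points below 0, and no IL6 point is filled.

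The genes whose profile over the 8 libraries was most like a member's were found by the root mean square difference in log2 CPM after each gene's own mean was taken off, among tested genes averaging 100 counts or more. Nearest to Cp were Il13ra1, a subunit of the interleukin 13 receptor (0.0855), and Ly6a, a surface protein also called Sca-1 (0.0987). C3 was nearest to Ecm1, a secreted matrix protein (0.142), and Elfn1 (0.150). For C1ra the nearest were Tnfrsf11b, the decoy receptor osteoprotegerin (0.181), and Ptger4, a prostaglandin E2 receptor (0.207). Gda, guanine deaminase, was among the nearest to C1s1 (0.303). Saa3, with few counts, was nearest to Disp2 (0.315) and Shc2 (0.374). Between members the smallest differences were 0.306 for Cp with C1ra and 0.316 for C1ra with C1s1, and all these values describe likeness over the same 8 libraries only.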

How the data were processed

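RNA of 8 libraries (4 groups of 2) was sequenced after stranded poly(A) selection, per the labels' protocols. The authors deposited raw read counts per gene, 1 file per library. Per the submitters' processing notes, tools included Trim Galore 0.6.5, STAR 2.7.3a, HTSeq 0.11.1 and DESeq2 1.34.0, with builds GRCm39 and mm39; strand setting and annotation are not given in the sources used here. Reads assigned to no single gene (11.7% to 12.7%) were left out. A symbol was found in GENCODE M21 for 52093 genes.

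Here edgeR 4.0.16 in R 4.3.3 fitted 15603 genes kept by filterByExpr (minimum count 10), with TMM scaling and a quasi-likelihood model of the 4 groups over all 8 libraries (4 residual degrees of freedom; biological coefficient of variation 6.42%). P-values were adjusted over all tested genes within each of 6 contrasts, at a threshold of 0.05. Counting intervals are exact at 95%. The steps were tested on simulated data. Exon lengths and shared 50-base stretches come from GENCODE M21 (GRCm38).

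The members and lists were chosen with earlier results of these data known. Named genes are all 9 members, up to 5 genes per list called with OSM or LIF by largest log2 change, and the 2 genes most like each called member (mean of at least 100 counts). Alternatives were DESeq2 1.42.0, no low-count filter, fits of only the 2 groups, a replicate block, a 2-fold minimum and leaving out each library. A gene that the rule also named is not reported here.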

Additional observations from a re-analysis of the deposited data

How the results depend on the processing

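Among 387 alternative values for the tested members, 349 kept their direction and side of the threshold, 26 lost the call, 10 gained it and 2 changed sign. Values of Saa3 for which DESeq2 gave no adjusted p are counted among the 349 by their direction alone. The number of members called for OSM against control was 4 to 6 and for LIF against control 2 to 4 when a library was left out. Leaving out a library also loosens the low-count filter, so members outside the 5 tested in the main fit can enter. A count of 6 includes such a member. With DESeq2 the number called was 4 for OSM against control and 4 for OSM against IL6, since DESeq2 gave no adjusted p for Saa3. For IL6 against control it was 0 to 1, and 1 with DESeq2 and with the replicate block. For OSM against LIF it was 1 to 4 when a library was left out, 2 with DESeq2 and 2 at a minimum of 2-fold. For LIF against IL6 it was 1 to 3, and 0 at 2-fold. With a library left out, the log2 change of LIF against control ran from -0.41 to 0.57 for Saa3 (-0.41 without LIF replicate 2, -0.17 without control replicate 2), from -0.028 (without control replicate 1) to 0.18 for Cd59a and from -0.31 to 0.018 (without control replicate 2) for Slc40a1; none of these was called, and the cause was not tested.

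Counts of all genes called moved more. Against the 3305, 1201, 0, 1251, 2429 and 431 genes of the 6 contrasts (OSM, LIF and IL6 against control, OSM against LIF, OSM against IL6, LIF against IL6), leaving out a library gave 1613 to 4056, 314 to 1659, 0 to 182, 440 to 1746, 1111 to 2684 and 79 to 724. A 2-fold minimum gave 761, 180, 0, 290, 553 and 67. DESeq2 gave 16 genes for IL6 against control, and a fit of only the 2 groups gave 2904 for OSM against LIF.

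Libraries of different groups share only a replicate number: correlations of the replicate differences between groups were 0.00708 to 0.181. With the number as a replicate block, 9 genes were called for IL6 against control and 832 for LIF against IL6. Cp with IL6 (adjusted p = 0.0308), C1ra with LIF (0.0196) and C1s1 for LIF against IL6 (0.0198) were called by edgeR with this block. With 1 library left in a group, its spread is taken from the other groups. At this depth Hp, C4b and Cfb cannot be compared between groups.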
